A study of Schizosaccharomyces pombe with 6 samples.

Results

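The fission yeast genes ura4, leu1 and ade6 were followed through 6 arrays that compared DNA precipitated with Ssb1, the large subunit of the single-stranded DNA binding protein RPA, with the input DNA of the same sample. Members were the array probes whose midpoint lay in one of the 3 annotated genes or within 2000 bp of it, which gave 60 of 42641 nuclear probes. Of these, 59 were used, because 1 probe upstream of leu1 carried an outlier flag. ura4 had 19 probes, leu1 had 21 and ade6 had 20, and 13 of the 60 lay in the gene bodies. The genes had been chosen by their input, IP and IP/input values in both strains, so their values are given as descriptions, without tests of their own.

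The strain called WT in the labels is a cdc25-22 mutant (3 arrays), and the other strain carries cdc25-22 together with a deletion of rad3 (3 arrays, called rad3∆ here). The input label of rad3∆ array 3 reads cdc25-23. Both strains were grown in EMM6S medium at 25 °C, held at 36.5 °C for 4 h, returned to 25 °C and given 6 mM HU (hydroxyurea). The titles carry a further number without a unit. No allele of ura4, leu1 or ade6 is named in the labels, and the molecule is labelled as RNA; the channels were read as precipitated and input DNA, an assumption behind every value. Nothing in the labels tells separate cultures from repeat arrays of 1 culture. The p-values therefore set fitted values against the spread of these arrays, which may not be the spread between cultures.

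All 3 genes encode biosynthetic enzymes and serve as selectable markers in fission yeast genetics. The ura4 product, orotidine 5′-phosphate decarboxylase, makes UMP. The leu1 product, 3-isopropylmalate dehydrogenase, acts in leucine synthesis, and the ade6 product, phosphoribosylaminoimidazole carboxylase, in purine synthesis, where its loss turns colonies red on low adenine. Loss of such a gene makes growth depend on the supplied nutrient, and a working copy is then used to select for gene replacements. For ura4 the piece in common use is a HindIII fragment, and a common host allele lacks that fragment. RPA coats single-stranded DNA, which is exposed at replication forks slowed by HU, and Rad3 is the checkpoint kinase that responds to it.

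In the ASM294v3 reference, ura4 (SPCC330.05c) lies on the minus strand of chromosome III from 115589 to 116625, with 1 exon of 1037 bp and a coding sequence of 264 codons. leu1 (SPBC1A4.02c) lies on the minus strand of chromosome II from 1974390 to 1975674 and has 371 codons in 1 exon. ade6 (SPCC1322.13) lies on the plus strand of chromosome III from 1316281 to 1318035 and has 552 codons in 1 exon. The array design uses an older build, but around each of the 3 genes the probe positions fitted the reference best at an offset of only 2 bp, judged by base composition.

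The HindIII sites around ura4 matter most for what follows. Every probe between them had a higher input in rad3∆ than in WT on each same-numbered pair of arrays. Single probes at leu1 and ade6 differed by more on some pairs. The stretch was delimited after the probe values had been seen, and probes were assigned to it by their midpoint, so that the outermost 2 of its 8 probes, at 115344 and 117055, reach across a site. The motif searched was AAGCTT, which reads the same on both strands, and capitals mark it below, 5′ to 3′ on the minus strand. The downstream end is chrIII:115318-115377 and the upstream end is chrIII:117076-117180, both from RefSeq's ASM294v3.
downstream end: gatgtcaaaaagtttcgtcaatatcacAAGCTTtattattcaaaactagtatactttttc
upstream end: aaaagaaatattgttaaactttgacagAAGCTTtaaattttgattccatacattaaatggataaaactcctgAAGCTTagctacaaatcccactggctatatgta
The site downstream of ura4 starts at 115345, which is 244 bp past the annotated end of the gene. The nearer upstream site starts at 117103, which is 478 bp before the annotated start, and a further site follows 45 bp beyond it. The inner sites start 1758 bp apart. HindIII sites are common in this genome, with 6931 in all, a median gap of 1209.5 bp, and at least 1 in 93.34% of 2494 windows of 5037 bp, the size of ura4 with its flanks. ura4 and its flanks hold 4 sites, against 2 for leu1 and 1 for ade6, and the match is a description of the sequence only.

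The arrays were checked against their labels first. Of the 33 probes in rad3, 24 (chromosome II, 904607 to 911114) gave no rad3∆ input signal well above background. Relative to the array median, their mean input in log2 units was -0.38, -0.22 and -0.31 on the WT arrays in order of replicate, and -7.18, -4.83 and -5.00 on the rad3∆ arrays, where it reflects the detection floor. The background-subtracted IP signal had medians from 41.41 on rad3∆ array 2 to 1143 on rad3∆ array 3. In the IP, 79.59% of probes on rad3∆ array 2 and up to 99.5% on the other arrays stood well above background. The number of arrays limits the precision of every value, and same-numbered arrays of the 2 strains shared a slide.

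The ura4 input signal was higher in rad3∆ than in WT on every slide, with the largest differences over the stretch between the HindIII sites. Values are log2 signals relative to the array's median nuclear probe. Over the 8 probes of the stretch, the input level was 0.85, 1.08 and 0.78 on the WT arrays in order of replicate (0.90 ± 0.16, SD, n = 3) and 1.19, 1.40 and 1.24 on the rad3∆ arrays (1.27 ± 0.11, SD, n = 3). All 3 rad3∆ arrays lay above all 3 WT arrays, a pattern found in 0.946% of all runs of 8 neighbouring probes. Slide by slide, rad3∆ exceeded WT by 0.34, 0.32 and 0.45 log2 units, a mean of 0.37 ± 0.07 (SD, n = 3), or 1.29-fold. The cause of this difference was not tested. A signal from DNA pooled from many cells does not give the number of copies in each cell.

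Each of the 8 probes with a midpoint inside the sites was higher in rad3∆ on all 3 slides, with mean differences from 0.28 to 0.49. Across the whole array, 11.7% of probes were higher on all 3 slides. Of the 11 probes in the flanks outside the sites, 1 was higher on all 3 slides, and their mean differences ran from -0.11 to 0.30. The nearest probe outside the downstream site, at 115080, differed by -0.09, 0.13 and 0.05 on slides 1 to 3, and the nearest outside the upstream site, at 117303, by -0.17, 0.29 and 0.10. The 1 outer probe that was higher on all slides, at 117553, came next on the upstream side and differed by 0.13, 0.46 and 0.30, a mean of 0.30 that lay above the lowest probe inside. No member probe was called on its own by limma, which called 0% of all probes for higher and 0.00236% for lower input in rad3∆. At an unadjusted p under 0.05 there were 17 and 71 probes. This fit had no slide term although the arrays shared slides, so the lack of calls does not show that the input was equal. The input differences of the 2 flanks were furthest apart on slide 3. Averaged over the 6 probes outside the downstream site, the slide differences were -0.0001, 0.12 and -0.07, a mean of 0.02 ± 0.10 (SD, n = 3). Over the 5 probes outside the upstream site rad3∆ was higher on each slide, by 0.05, 0.15 and 0.18. Of these 5, the probes at 118280 and 118559 each stood well above background in the input on 3 arrays only.

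**Figure D1:**
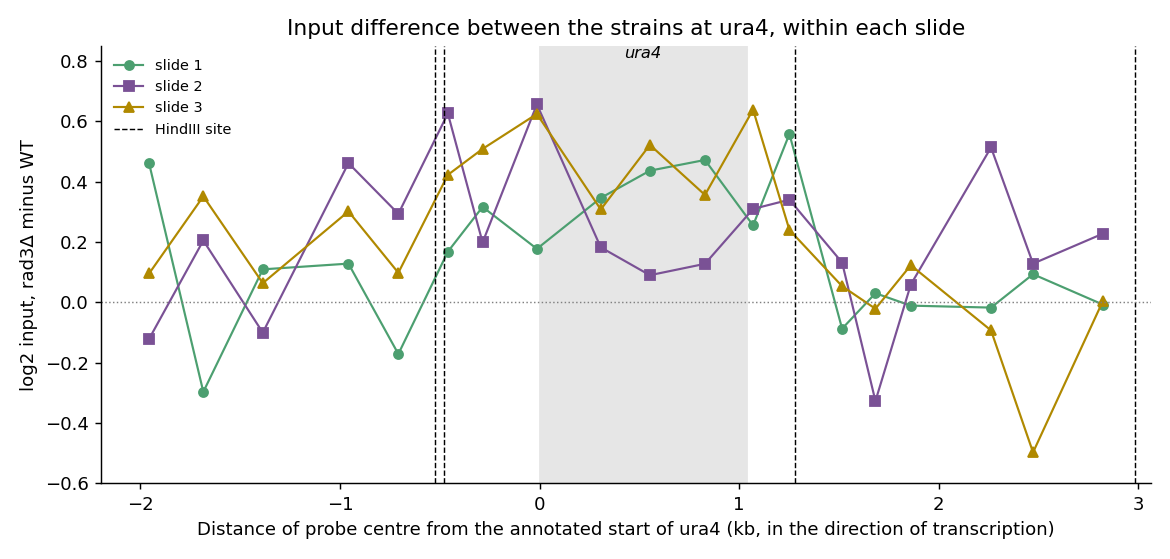
Difference in input signal between the strains (rad3∆ minus WT) on each slide, for each probe around ura4 by position relative to the annotated start. The 8 probes between the HindIII sites sit at mean differences of 0.28 to 0.49 log2 units, and the 11 outer probes between -0.11 and 0.30.

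Among all 42409 runs of 8 neighbouring probes, the stretch had the highest mean input difference and also the highest value on its least different slide (0.32). The next run that did not overlap ura4 lay on chromosome II from 2420491 to 2422604, with a mean of 0.34 but a value of -0.02 on its lowest slide. The rank of ura4 depended on the slides used. It was the 7th highest without slide 1, the highest without slide 2 and the 29th highest without slide 3. These ranks describe a stretch chosen for its values.

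Over the 3 probes of the gene body alone, the ura4 input was 0.33, 0.69 and 0.41 on the WT arrays and 0.75, 0.83 and 0.81 on the rad3∆ arrays. The strains again did not overlap, which held for 0.696% of genes, and slide 2 differed least (0.13 against 0.42 and 0.40). The fitted difference was 0.32 ± 0.11 (SE), the 10th highest of 4144 protein-coding genes. limma called no gene for higher input in rad3∆ (0% of 8192) and none for lower input (0%), while 8 and 13 genes reached an unadjusted p under 0.05 in these directions. That test also left rad3 itself uncalled, at -4.01 ± 0.46. The 5 protein-coding genes with the largest absolute input differences were rad3, swi1 (-2.59 ± 0.30), which overlaps the lost segment, SPBC215.11c (-0.59 ± 0.59), rpl3202 (-0.57 ± 0.42) and mes1 (0.52 ± 0.42).

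In the IP channel, WT array 2 stood apart at ura4. The IP level of the stretch was 1.21, 2.43 and 1.02 on the 3 WT arrays in order and 1.36, 1.42 and 1.23 on the rad3∆ arrays. The other 5 arrays lay between 1.02 and 1.42, and WT array 2 lay 1.01 above rad3∆ array 2, the next highest. The IP/input ratio, the measure of RPA, was accordingly 0.38, 1.36 and 0.27 on the WT arrays and 0.19, 0.03 and -0.01 on the rad3∆ arrays. All WT arrays lay above all rad3∆ arrays, as in 4.84% of all runs of 8 neighbouring probes, with 0.27 on the lowest WT array against 0.19 on the highest rad3∆ array. The WT mean of 0.67 ± 0.60 (SD, n = 3) fell to 0.32 without array 2. The IP level itself differed between the strains by 0.15, -1.01 and 0.21 on slides 1 to 3, so it was lower in rad3∆ on slide 2 only.

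WT array 2 had the highest ratio of the 6 arrays at all 8 probes inside the sites, from 0.73 to 1.81, and at none of the 11 outer probes, where it ran from -0.18 to 0.68. Of the 11 outer probes, 8 stood well above background in the IP on all arrays. Averaged over the outer probes, the ratio of WT array 2 was 0.15, below the 0.55 and 0.75 of WT arrays 1 and 3. It was also below the rad3∆ arrays at 0.49, 0.52 and 0.50. On WT array 2 the ratio inside the sites therefore exceeded that outside by 1.21 log2 units. On the other arrays it was lower inside than outside, and the difference (inside minus outside) came to -0.18 and -0.49 for WT arrays 1 and 3 and to -0.30, -0.49 and -0.51 on the rad3∆ arrays. Of all runs of 8 neighbouring probes, the stretch had the highest ratio on WT array 2 relative to the mean of the other 5 arrays (1.19), and the next that did not overlap it was a run on chromosome I from 5258739 to 5261082 (array positions) at 0.95. The stretch and the array were both picked after these values were seen, so this rank is only a description. The cause was not tested.

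**Figure D2:**
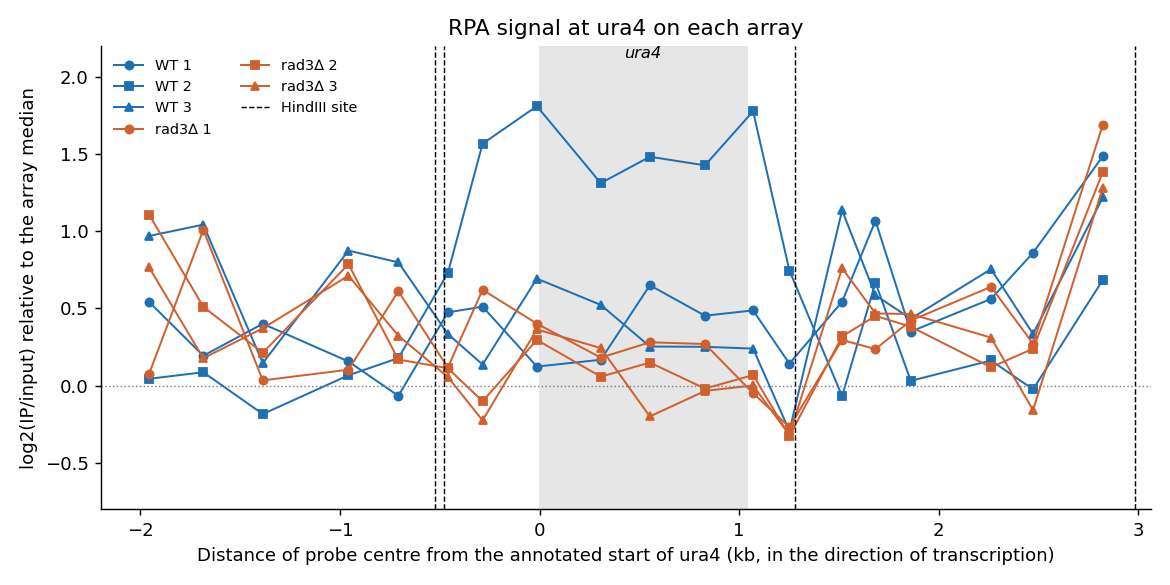
IP/input ratio of each probe around ura4 by position relative to the annotated start, per array. WT array 2 lies above all other arrays at the 8 probes between the HindIII sites (0.73 to 1.81) and at 0 of the 11 probes outside them.

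**Figure D3:**
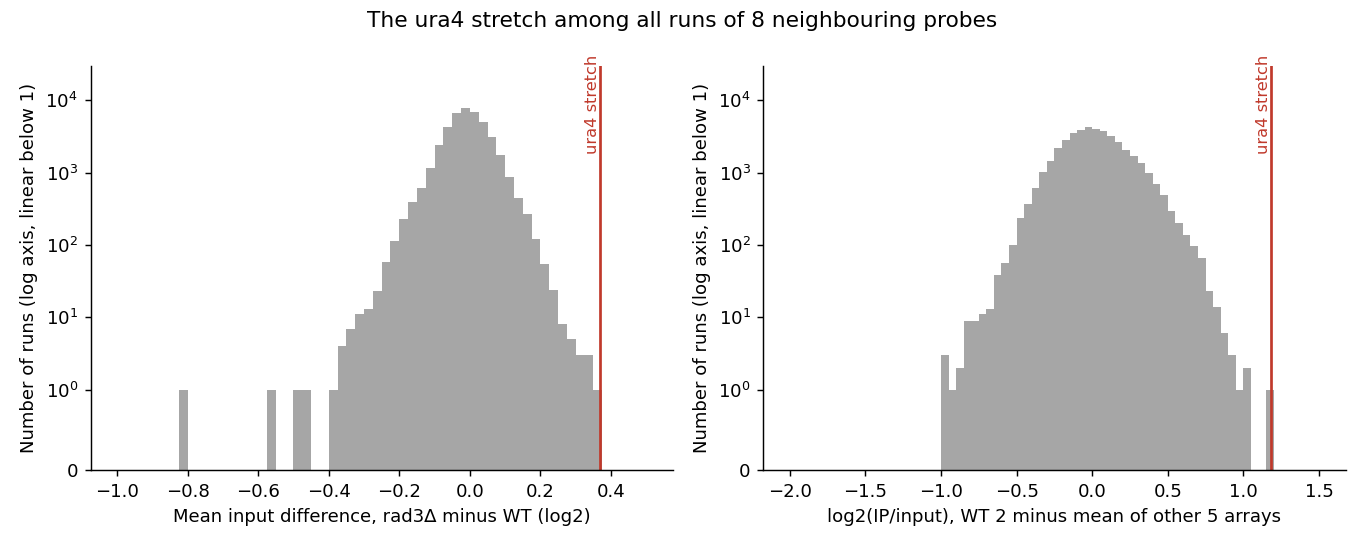
Number of runs of 8 neighbouring probes (log axis) by their mean input difference and by the excess of the WT array 2 ratio over the mean of the other arrays, with the ura4 stretch marked at 0.37 and 1.19. In the left panel 29 runs below -1 are off the axis. The stretch and WT array 2 were picked after their values were seen.

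Over the gene bodies, the fitted RPA level in WT was 0.66 ± 0.17 (SE) at ura4, 0.70 ± 0.09 at leu1 and 0.10 ± 0.10 at ade6, and in rad3∆ 0.04 ± 0.17, 0.15 ± 0.09 and 0.08 ± 0.10. The rad3∆ levels moved with the processing, to -0.11, 0.37 and 0.17 with normexp background correction and to -0.064, 0.040 and -0.024 when arrays were centred on their mode. By the call made over all genes, ura4 and leu1 counted as enriched in WT and 0 of the 3 in rad3∆. A gene was called enriched at a limma adjusted p under 0.05 and a fitted ratio of at least 0.5 log2 units, which 17.7% of genes reached in WT and 18.2% in rad3∆. None of the 3 was depleted, a call made for 21.1% of genes in WT and 20.6% in rad3∆. The 1450 enriched and 1728 depleted genes of WT became 967 and 2231 when arrays were centred on their mode, and the 1491 and 1685 of rad3∆ became 1022 and 2142. The mode of the ratio lay 0.0018 to 0.24 log2 units above the median, and fitted WT levels with it were 0.55 at ura4 and 0.58 at leu1. Since RPA values helped to choose the genes, nothing is read from these counts, and a call in one strain alone does not show a difference between the strains. The ura4 call in WT was lost without WT array 2, when the fitted level was 0.38.

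**Figure D4:**
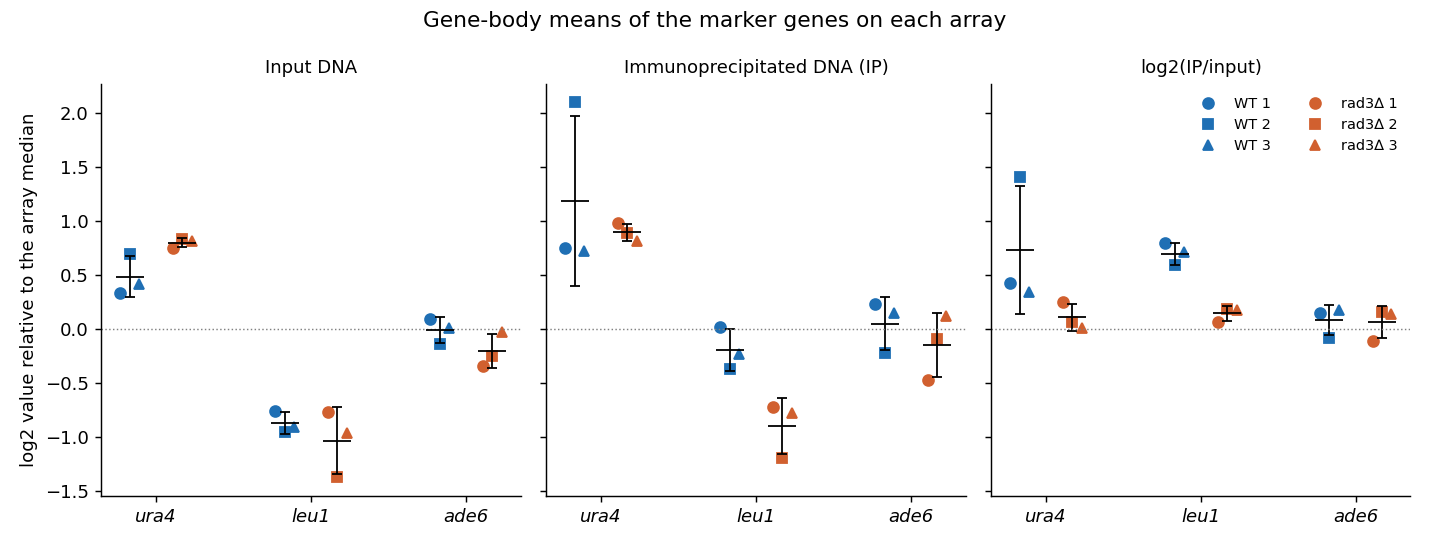
Input level, IP level and IP/input ratio over the bodies of ura4, leu1 and ade6 for each array, with the strain means. The ura4 ratio of WT array 2 (1.41) stands apart from the other WT values (0.42 and 0.34), while the leu1 ratios of the strains are separated (0.59 to 0.79 in WT, 0.07 to 0.18 in rad3∆).

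At the ura4 body the ratio was 0.42, 1.41 and 0.34 on the WT arrays and 0.24, 0.06 and 0.0034 on the rad3∆ arrays. The strains did not overlap, as at 4.06% of all genes in this direction, and rad3∆ was lower on all 3 slides, as at 18.1% of genes. The slide differences were -0.18, -1.34 and -0.34, so that slide 2 carried most of the fitted difference of -0.62 ± 0.24, the 3rd lowest of 4144 protein-coding genes. Without WT array 2 the fitted difference was -0.30. The IP level of the ura4 body differed by 0.23, -1.21 and 0.09 on slides 1 to 3. On slides 1 and 3 the lower ratio in rad3∆ thus went with a higher input (by 0.42 and 0.40), not with a lower IP. The excess of the WT array 2 ratio at ura4 (1.19) was the second highest of the protein-coding genes, after stg1 (1.25, from 2 probes). That array was singled out after its values were seen.

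The genes beside ura4 did not share this pattern. The ratio of tam14, which lies from 114921 to 115256 just outside the downstream site, was 0.81, 0.30 and 0.86 on the WT arrays and 0.27, 0.39 and 0.61 on the rad3∆ arrays, with WT array 2 the lowest of its strain. Likewise pmp20, on the upstream side, read 0.35, 0.24 and 0.93 in WT and 0.58, 0.77 and 0.50 in rad3∆. Its probes at 118280 and 118559 were near background, so its values are weak. Each stood well above background on 3 arrays in the input and on 1 in the IP. The non-coding SPNCRNA.6707, which overlaps tam14, had fitted levels of 0.57 ± 0.11 in WT and 0.46 ± 0.11 in rad3∆. The input difference was -0.04 at tam14, 0.08 at pmp20 and -0.01 at SPNCRNA.6707. A further coding gene, new25, SPNCRNA.6706 and a glycine tRNA gene had fewer than 2 probes and were not measured.

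RPA at leu1 was higher in WT than in rad3∆ on each slide. The ratio over the leu1 body was 0.79, 0.59 and 0.71 on the WT arrays (0.69 ± 0.10, SD, n = 3) and 0.07, 0.18 and 0.18 on the rad3∆ arrays (0.14 ± 0.07, SD, n = 3). The strains did not overlap (4.06% of all genes in this direction), and rad3∆ was lower on all 3 slides (18.1% of genes), by 0.72, 0.41 and 0.53. The fitted difference was -0.55 ± 0.13, the 8th lowest of 4144 protein-coding genes, which corresponds to 0.681 times the WT level as a mean over slides. limma called no gene for a lower RPA ratio in rad3∆ (0% of 8192) and none for a higher ratio (0%), with 200 and 468 genes at an unadjusted p under 0.05.

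The difference at leu1 lay in the IP channel. The IP level of the leu1 body was 0.02, -0.37 and -0.23 on the WT arrays and -0.72, -1.19 and -0.78 on the rad3∆ arrays. The input level was -0.76, -0.95 and -0.91 in WT and -0.77, -1.37 and -0.96 in rad3∆, with rad3∆ array 2, the array with the dimmest IP, the lowest. The input difference of leu1 was -0.16 ± 0.17 (SE) and 0.02 without rad3∆ array 2. Of the 4 probes in the leu1 body, 1 was well above background in the IP on all 6 arrays, and the other 3 on 5 of them.

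Among single leu1 probes, that at 1975469, near the start of the gene, had ratios of 1.15, 1.26 and 0.69 in WT and -0.01, 0.29 and 0.11 in rad3∆. The probe at 1974651, nearest the end, had 0.22, 0.30 and 0.68 in WT and 0.24, 0.25 and -0.01 in rad3∆, and the strains overlapped there. In the 2 kb upstream of leu1, WT had a mean ratio of 0.33 ± 0.05 and rad3∆ one of 0.02 ± 0.28 (SD, n = 3 arrays each), and in the 2 kb downstream the means were 0.41 ± 0.07 and 0.26 ± 0.23. In both flanks 1 of the 3 slides had rad3∆ above WT. WT array 2, which stood apart at ura4, lay below WT arrays 1 and 3 at the leu1 body.

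Of the neighbours of leu1, SPNCRNA.5430 (1974492 to 1975924) overlaps the gene and shares probes with it, and its fitted RPA level was 0.58 ± 0.09 in WT and 0.11 ± 0.09 in rad3∆. top2, the DNA topoisomerase II gene upstream, had 0.10 ± 0.12 and -0.19 ± 0.12, and apc10, a subunit gene of the anaphase-promoting complex downstream, had 0.41 ± 0.14 and 0.18 ± 0.14. knh4 had 0.22 ± 0.10 in WT and 0.16 ± 0.10 in rad3∆. The fitted differences were -0.47 ± 0.13 at SPNCRNA.5430, -0.30 ± 0.16 at top2, -0.23 ± 0.19 at apc10 and -0.06 ± 0.14 at knh4. The remaining measured neighbours were the non-coding SPNCRNA.5429 and SPNCRNA.5432, at -0.18 ± 0.18 and -0.26 ± 0.23.

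At ade6 the strains overlapped in the ratio, the input and the IP. The ratio over the ade6 body was 0.15, -0.08 and 0.17 on the WT arrays and -0.11, 0.16 and 0.14 on the rad3∆ arrays. The strain means were 0.08 ± 0.14 and 0.06 ± 0.15 (SD, n = 3), and the fitted difference of -0.02 ± 0.14 ranked 2193rd lowest of 4144. The input was 0.09, -0.14 and 0.01 in WT and -0.34, -0.25 and -0.03 in rad3∆, with slide differences of -0.44, -0.11 and -0.04.

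The low ade6 input of rad3∆ array 1 came from 1 probe. At 1317256 the input was 1.07, 0.14 and 0.37 on the WT arrays and -2.05, -0.02 and 0.25 on the rad3∆ arrays, and the IP of rad3∆ array 1 was also low there (-2.57). This probe carried no outlier flag. Without it, a step chosen after its values were seen, the ade6 slide differences in input were 0.10, -0.10 and -0.02, with a mean of -0.01.

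**Figure D5:**
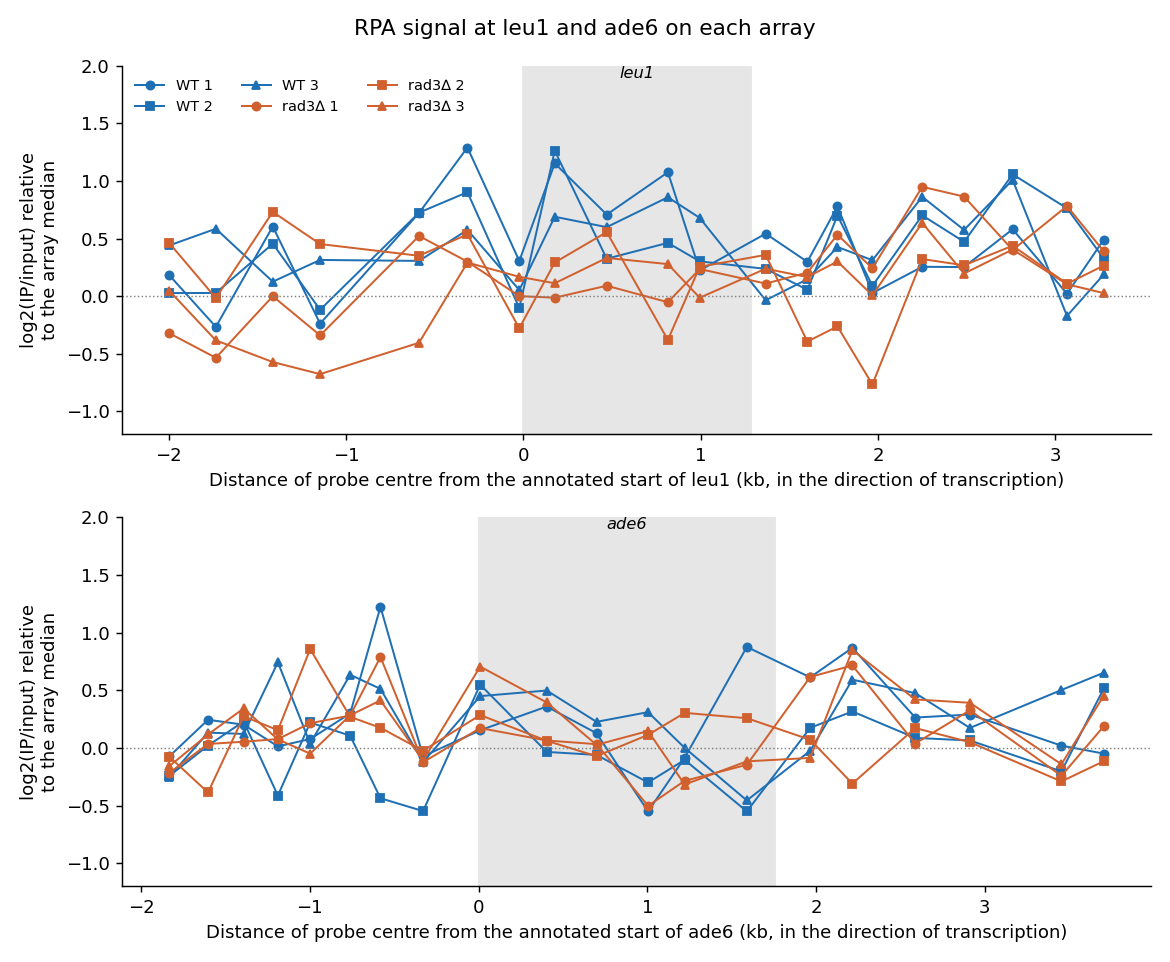
IP/input ratio of each probe around leu1 and ade6 by position relative to the annotated start, per array. Over the leu1 body the WT arrays average 0.69 and the rad3∆ arrays 0.14, and over ade6 the strains average 0.08 and 0.06.

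None of the genes around ade6 was called for an RPA difference between the strains, a call made for 0% of all 8192 genes. The lack of calls is therefore not particular to this region. The fitted RPA level of bub1, a spindle checkpoint kinase gene upstream, was 0.12 ± 0.10 in WT and 0.11 ± 0.10 in rad3∆, and that of vtc4, a polyphosphate synthase gene downstream, was 0.23 ± 0.09 and 0.08 ± 0.09. Of the non-coding neighbours, SPNCRNA.7310 had the highest levels, 0.29 ± 0.12 in WT and 0.35 ± 0.12 in rad3∆, above those of ade6. SPNCRNA.7308, SPNCRNA.7309, SPNCRNA.7310 and SPNCRNA.7311 had strain differences of -0.09 to 0.10. The last of these overlaps ade6 and shares its probes.

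At the edge of the 2 kb rule, the ura4 probes just inside (113774 and 118559) had mean input differences of 0.07 and 0.14. The probe at 118559 was well above background in the input on 3 arrays only. The ura4 probes just outside (113538 and 118968) had -0.05 and 0.02. For leu1 the inner edge probes had -0.16 and -0.07 and the outer ones 0.06 and 0.05. For ade6 they had 0.11 and 0.06 inside and 0.09 and 0.05 outside.

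The other genes of each pathway were counted from fixed lists. None was called for a strain difference in RPA or in input. Since 0% of all 8192 genes received such a call, nothing is read from this about the lists. For these genes, levels given with an SD are plain means of the arrays, while calls and medians use fitted values. Over all 4144 protein-coding genes, the median fitted RPA level was -0.02 in WT and -0.03 in rad3∆, with 680 genes enriched in WT and 670 in rad3∆.

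Among the other uracil genes, 5 of 6 were measured, with input differences from -0.12 to 0.08 against 0.32 at ura4. In WT, 2 of the 5 were enriched, namely ura3 (0.55 ± 0.27, SD, n = 3), the dihydroorotate dehydrogenase, and ura6 (0.57 ± 0.20), the uridylate kinase. In rad3∆, ura6 alone was enriched (0.55 ± 0.26) and ura3 read 0.30 ± 0.17. The lowest was ura1 (-0.22 ± 0.09 in WT and -0.42 ± 0.33 in rad3∆), the enzyme of the first steps. The median strain difference in RPA was -0.20, compared with -0.62 at ura4 and -0.03 over protein-coding genes.

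Of 6 branched-chain and leucine genes listed, 4 were measured and none was enriched in either strain. ilv1, which encodes acetolactate synthase, was depleted in both (-0.54 ± 0.22 in WT and -0.75 ± 0.25 in rad3∆), and the highest was ilv3 (-0.03 ± 0.15 and -0.06 ± 0.18). The median fitted level of the list was -0.23 in WT, where leu1 had 0.70. The median strain difference was -0.11.

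Of 9 other adenine genes, 7 were measured. ade7 was enriched in both strains (0.75 ± 0.35 in WT and 0.72 ± 0.30 in rad3∆), ade5 in rad3∆ only by the call (0.33 ± 0.13 and 0.59 ± 0.25), and ade1 was depleted in both (-0.56 ± 0.22 and -0.51 ± 0.01). The median strain difference was 0.04. Of 12 further auxotrophic or selectable markers, 10 were measured. arg1 was enriched in both strains (0.80 ± 0.25 and 0.73 ± 0.29). his5 was depleted in both (-0.69 ± 0.07 and -0.49 ± 0.22), with a fitted level of -0.52 in rad3∆. Input differences of these markers ran from -0.12 to 0.05. The median strain difference in RPA of these markers was -0.04, with a range from -0.18 to 0.58. The highest was at trp1, an anthranilate synthase gene named after its values were seen. Its ratio was -0.35, -0.17 and -0.07 on the WT arrays and 0.20, 0.55 and 0.40 on the rad3∆ arrays. The difference of 0.58 ± 0.14 (SE) was not called, was about as large as those at ura4 and leu1, and ran the other way.

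Likeness to each member was measured as the root-mean-square difference over the 6 arrays, among protein-coding genes with at least 4 probes, and is a description over arrays that share slides. For RPA, the genes nearest to leu1 were adh1 (0.128), aph1 (0.131) and png3 (0.179). Those nearest to ura4 were vps35 (0.334), prp4 (0.347) and zrt1 (0.352), so none of the genes searched came as close to ura4 as adh1, aph1 and png3 did to leu1. On WT array 2, vps35, prp4 and zrt1 read 0.662, 0.609 and 0.835, against 1.41 at ura4. Those nearest to ade6 were SPCC285.05 (0.0541), pop1 (0.063) and seb1 (0.0636). For input, centred on each gene's own mean, the nearest to ura4 were ptf2 (0.111), mug130 (0.124) and SPAC6F6.11c (0.128). Those nearest to leu1 were SPCC417.12 (0.0458), mrpl1 (0.0508) and ppk14 (0.0559), and those nearest to ade6 were mnr2 (0.0628), ppk25 (0.0678) and SPCC320.05 (0.0679).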

How the data were processed

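The authors deposited Agilent Feature Extraction output (version 10.7.1.1 for the replicate 1 arrays and 10.7.3.1 for the others, per the file headers) for 6 two-colour arrays. The processed signal is an intensity that the software had background-subtracted and dye-normalized under an Agilent CGH protocol, per the file headers. The deposited log10 ratio is that of red to green; at least 99.73% of probes matched the ratio of processed signals within 0.01 log2 units. The IP dye was 555 in replicates 1 and 2 and Cy5 in replicate 3, per the labels.

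From these signals, log2 input, log2 IP and their difference were computed per probe and centred on each array's median nuclear probe. The 211 probes with an outlier flag were left out, leaving 42430. Probes were averaged over 8192 genes with at least 2 probes. limma 3.58.1 (R 4.3.3) fitted a mean per strain and a dye term to all 6 arrays, with Benjamini-Hochberg adjustment over all genes or probes. It was also run on simulated input values. These had no shared slide effect and held planted changes larger than the ura4 input difference. The simulation therefore does not show how well the fit finds differences of that size here. Fitted values weigh both dye orientations equally. Strain differences are rad3∆ minus WT.

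Per the file headers, the design's positions belong to an NCBI build labelled Feb2002. Compared with ASM294v3 by base composition, 107 of 126 segments matched within 4 bp; the other 19, on chromosome I beyond 3700000, received no gene names. HindIII sites were read from the reference. Per-sample columns left without a sample numbered 0.

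Same-numbered arrays share a slide, per the file headers, and deviated together from their strain means (r of 0.757, 0.602 and 0.784 for input and of 0.37, 0.323 and 0.551 for the ratio), so the numbers pair the arrays. The fit reported here had no slide term. Alternatives were the slide block, no dye term, mode centring, normexp, probes well above background only, outlier probes kept, coding spans, probe medians, at least 4 probes, a size threshold of 1 and leaving out each array.

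Named were the 3 members, pathway genes past a call with the highest and lowest of each list, overlapping neighbours, the 3 genes most like each member, the 5 genes with the largest input differences, and rad3. Members and lists were chosen with earlier results of these data known. The ura4 stretch, and its alternatives, were chosen after the data were seen.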

Additional observations from a re-analysis of the deposited data

How the results depend on the processing

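The ura4 input difference kept its direction under every alternative run, from 0.22 to 0.43 when single arrays were left out and 0.32 ± 0.07 (SE) with the replicate block, against ± 0.11 without it. The stretch differed by 0.33 to 0.40 without single slides. The ura4 RPA level in WT ran from 0.38 to 0.87 and the strain difference from -0.86 to -0.30 when single arrays were left out, the smallest in size without WT array 2. The ura4 RPA level in rad3∆ was -0.11 with normexp and ran from -0.13 to 0.12 without single arrays, and that of the stretch was -0.18 with normexp. At leu1, mode centring gave 0.58 in WT and 0.040 in rad3∆, and normexp gave 0.37 in rad3∆ and a strain difference of -0.39. leu1 had too few probes under the limit to probes well above background, where ade6 in WT was -0.041. The single probe called for lower input, at 906504 on chromosome II in rad3, became 17 probes with mode centring, 12 with the replicate block, 9 without the dye term, 0 with normexp, 0 among probes well above background, and 0 to 23 without single arrays. Genes called for lower input numbered 4 with mode centring (rad3, swi1, SPNCRNA.383 and SPNCRNA.5428) and 0 to 2 without single arrays (rad3 and swi1). Genes called for higher RPA in rad3∆ numbered 2 on coding spans (rad3 and fub2) and 4 with at least 4 probes (rad3, fub2, SPNCRNA.1691 and SPNCRNA.1695); these names were taken after their values were seen, and the ratio over rad3 is set by the detection floor. WT had 1450 enriched and 1728 depleted genes, which became 614 and 821 on coding spans of 3872 genes, 890 enriched with at least 4 probes, and 102 and 316 at a size threshold of 1. For rad3∆, 1491 and 1685 became 615 and 833 on coding spans, 905 enriched with at least 4 probes, and 110 and 353 at that threshold. The replicate block changed no other call count by over 1.5 times. Coding spans and the limit of 4 probes tested fewer genes (3872 and 5380 of 8192); the cause of the other shifts was not tested. The files hold no mean spot signal, so normexp used the median signals. Faint IP signal on rad3∆ array 2 limits leu1, and 3 gene-body probes limit ura4.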
